A study of Mus musculus with 6 samples.

Results

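Genes that Wnt signalling switches on and that then relay or dampen it, and genes whose products block it at the cell surface or outside the cell, were followed in heads of mouse embryos lacking Arid3b, a transcription factor of the ARID family. The set holds the feedback genes Axin2, Lef1, Tcf7, Sp5, Nkd1, Rnf43 and Znrf3 and the antagonists Wif1, Dkk1 and Apcdd1. They were chosen by name as textbook members of these classes, with earlier results of these data known. Their non-control probes were found through the RefSeq accession each probe carries, which gave 13 probes for the 10 genes, out of 39429 probes and 20026 named genes on the array. Axin2, Tcf7 and Nkd1 have 2 probes each and the other 7 genes have 1. All 13 probes were well above background on all 6 arrays.

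The series compared 3 samples of wild type heads with 3 samples of Arid3b-null heads, all at embryonic day 9.5 and dissected to keep the first branchial arch. Every array, an Agilent one-colour design, received RNA of 4 pooled embryos. The sources used here do not give the strain, the kind of null allele or the litters behind the pools, and the p-values reflect only how these pools varied. A whole head holds many cell types, and more cells of a type cannot be told apart from more RNA per cell.

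Wnt ligands bind Frizzled receptors and the co-receptors Lrp5 and Lrp6, which stops the destruction of beta-catenin. Beta-catenin then enters the nucleus and, with DNA-binding partners of the Tcf and Lef family, activates target genes. Many of those targets are brakes on the same pathway, so their RNA is widely used as a readout of it. In the early embryo the front of the head forms where Wnt signalling is held low, and loss of Dkk1 removes head structures, while Wnt1 at the midbrain and its boundary with the hindbrain is needed for those regions.

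Most of these genes had higher signal in Arid3b-null heads, and none was called lower. Wif1, Rnf43, Sp5 and Nkd1 rose, by 3.86, 2.28, 1.82 and 1.47-fold (limma, Benjamini-Hochberg adjusted p under 0.05 over all 26288 probes kept, n = 3 arrays per group). These are 4 of 10 genes, each read through its brighter probe; 19.7% of the 14906 named genes kept were called in this fit, 10.5% higher and 9.21% lower in null. By probe, 4 of 13 were called, where 18.0% of all kept probes were called and 9.38% were higher. In 7 of the 10 genes every null array lay above every wild type array, and in 0 every null array lay below. Among all named genes the groups lay apart in 42.4%, with the null arrays higher in 20.6% and lower in 21.8%. The median difference of the 10 genes was 0.83 on the log2 scale, against -0.04 over all named genes. Differences are null minus wild type in log2 units ± the standard error from limma, and levels are log2 signal relative to the 75th percentile of the same array.

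**Figure D1:**
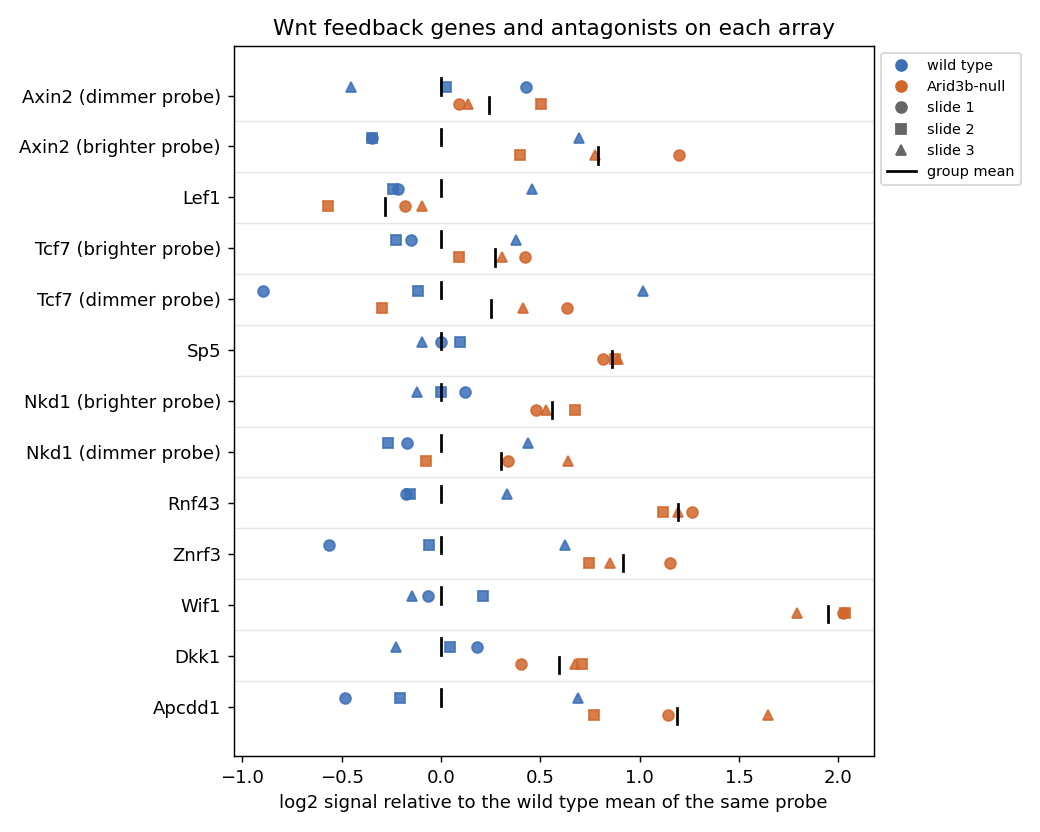
Log2 signal of each of the 13 probes on each of the 6 arrays, relative to the wild type mean of the same probe; blue points are wild type, orange points Arid3b-null, the marker shape gives the slide and black ticks the group means. The 3 null arrays lie above the 3 wild type arrays for Sp5, the brighter Nkd1 probe, Rnf43, Znrf3, Wif1, Dkk1 and Apcdd1, and the groups overlap for both Axin2 probes, Lef1, both Tcf7 probes and the dimmer Nkd1 probe.

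The DNA upstream of some of these genes carries the short cores that Tcf and Lef factors bind. Windows of Sp5 and Wif1, which were called, and of Dkk1 and Axin2, which were not, are printed here. CTTTGA and CTTTGT were searched on both strands in the 250 bases before each start in the RefSeq promoter table (build GRCm38.p6), and matches are in capitals below, so a match on the other strand reads TCAAAG or ACAAAG. Sp5 (chr2:70474673-70474922, plus strand) and Dkk1 (chr19:30549497-30549746, minus strand) hold matches. Wif1 (chr10:121033754-121034003, plus strand), the gene with the largest rise of the set, and Axin2 (chr11:108920099-108920348, plus strand) hold none.
Sp5: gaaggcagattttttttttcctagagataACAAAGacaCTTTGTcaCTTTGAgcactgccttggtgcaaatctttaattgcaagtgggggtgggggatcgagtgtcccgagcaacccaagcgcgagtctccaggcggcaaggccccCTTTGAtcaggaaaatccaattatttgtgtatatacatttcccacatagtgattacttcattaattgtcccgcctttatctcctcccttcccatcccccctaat
Dkk1: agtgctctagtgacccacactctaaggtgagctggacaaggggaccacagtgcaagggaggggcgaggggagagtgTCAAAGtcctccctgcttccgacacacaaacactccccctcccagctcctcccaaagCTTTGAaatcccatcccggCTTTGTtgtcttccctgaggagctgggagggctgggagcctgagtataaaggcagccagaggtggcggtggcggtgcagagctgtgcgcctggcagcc
Wif1: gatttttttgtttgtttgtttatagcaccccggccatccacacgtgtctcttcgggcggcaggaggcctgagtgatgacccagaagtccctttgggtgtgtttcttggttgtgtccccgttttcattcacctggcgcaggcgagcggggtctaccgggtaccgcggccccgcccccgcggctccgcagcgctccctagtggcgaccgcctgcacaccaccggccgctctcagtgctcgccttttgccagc
Axin2: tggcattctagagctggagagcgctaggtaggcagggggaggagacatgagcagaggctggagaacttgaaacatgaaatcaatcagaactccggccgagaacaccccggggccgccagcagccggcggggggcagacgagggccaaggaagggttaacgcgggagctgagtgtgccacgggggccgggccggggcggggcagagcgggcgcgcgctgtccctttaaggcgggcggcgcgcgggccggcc

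The Sp5 window had 4 matches and the Dkk1 window 3. In Sp5, 3 of them lie close together, with first bases 221, 212 and 204 bases before the start, and the fourth begins 104 bases before it. The Dkk1 matches begin 174, 117 and 98 bases before its start. The table held 13 windows for 8 of the 10 genes, and 3 windows of 3 genes (Lef1, Sp5 and Dkk1) had at least 1 match. Of the called genes only Sp5 had a match, and the windows of Wif1, Rnf43 and Nkd1 had none. Among all 32851 promoter windows of this length, 13.8% held CTTTGA, 16.5% held CTTTGT and 27.6% held either. In the set, 3 of 13 windows held CTTTGA, 3 of 13 CTTTGT and 3 of 13 either. The share with either core was thus not above that of all windows. The Lef1 matches, 3 in number, lay in 1 of its 4 windows. A match describes the letters only and is no evidence that a factor was bound there.

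Axin2, a scaffold of the complex that destroys beta-catenin and the most general of the feedback targets, ran differently over the arrays on its 2 probes. The brighter probe (A_66_P134405) read -2.48, -2.48 and -1.44 in wild type replicates 1, 2 and 3 and -0.94, -1.74 and -1.36 in null replicates 1, 2 and 3. Wild type replicate 3 lay among the null arrays and the other wild type arrays lay below all of them. The difference was 0.79 ± 0.34, 1.73-fold, and did not pass the test (adjusted p = 0.151). The dimmer probe (A_55_P2000783) read -2.48, -2.88 and -3.36 in wild type and -2.82, -2.40 and -2.77 in null heads, with a difference of 0.24 ± 0.25 (adjusted p = 0.544). Wild type replicate 3 was thus the highest wild type array on 1 Axin2 probe and the lowest on the other. Without that array the brighter probe was 1.14 higher and passed (adjusted p = 0.0180), and the dimmer probe was at 0.02 (adjusted p = 0.958). The mean of both probes, fitted with 1 value per gene, was 0.52 ± 0.14 higher (adjusted p = 0.0358). That mean evens out the opposite readings of wild type replicate 3, and neither probe passed alone with all arrays in.

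Lef1 and Tcf7 encode DNA-binding partners of beta-catenin, and neither passed the test. Lef1 read 0.78, 0.76 and 1.45 in wild type and 0.82, 0.43 and 0.90 in null heads. Its difference of -0.28 ± 0.24 was the single negative value of the 13 probes (95% interval -0.85 to 0.29, adjusted p = 0.461). The highest Lef1 value was again that of wild type replicate 3, and without this array the difference was -0.05. The brighter Tcf7 probe (A_52_P244702) read -1.37, -1.45 and -0.85 in wild type and -0.80, -1.13 and -0.92 in null heads, a difference of 0.27 ± 0.20 (95% interval -0.21 to 0.75, adjusted p = 0.398). The dimmer Tcf7 probe (A_55_P2109633) ran from -5.23 to -3.32 within the wild type group alone, wider than any other probe of the set, and its difference was 0.25 ± 0.48 (adjusted p = 0.762). It turned to -0.20 without wild type replicate 1 and was 0.76 without wild type replicate 3. These intervals do not show that the levels were equal.

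Sp5, a zinc finger repressor of the Sp family and a direct target in many tissues, rose evenly. Its probe read 0.43, 0.52 and 0.33 in wild type and 1.24, 1.30 and 1.32 in null heads. The null arrays lay close together, and the lowest of them was 0.72 above the highest wild type array. The difference was 0.86 ± 0.14, 1.82-fold (adjusted p = 0.00798, and 0.0243 with the slide as a block). Within slides 1, 2 and 3 it was 0.81, 0.78 and 0.99. Sp5 passed under all 17 alternatives, with differences of 0.76 to 0.92.

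Nkd1, which binds Dishevelled and damps the signal inside the cell, rose on 1 of its 2 probes. The brighter probe (A_55_P1967736) read 1.32, 1.20 and 1.08 in wild type and 1.67, 1.87 and 1.73 in null heads, with no overlap. Its difference was 0.56 ± 0.15, 1.47-fold (adjusted p = 0.0398). That call was close to the threshold and was lost with the slide as a block (0.0675), with median centring (0.0588), with dim probes kept in (0.105) and when any 1 array was left out except wild type replicate 3 (0.0708 to 0.135). The mean of both Nkd1 probes, fitted with 1 value per gene, was 0.43 ± 0.15 higher and did not pass (adjusted p = 0.0716). The dimmer probe (A_55_P2118694) ran from -3.19 to -2.49 in wild type and from -3.00 to -2.28 in null heads, which overlap, at 0.30 ± 0.26 (adjusted p = 0.468).

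Rnf43 and Znrf3 are related membrane ubiquitin ligases that clear Frizzled receptors from the cell surface, and R-spondins relieve that brake. Rnf43 read -2.55, -2.53 and -2.04 in wild type and -1.11, -1.25 and -1.18 in null heads. All null arrays were clearly above all wild type arrays. The difference was 1.19 ± 0.18, 2.28-fold (adjusted p = 0.00717, 0.0188 with the slide as a block), with 1.44, 1.28 and 0.86 within slides 1, 2 and 3. It passed under all 17 alternatives, with differences of 0.92 to 1.37. Znrf3 read -3.04, -2.54 and -1.85 in wild type and -1.33, -1.73 and -1.62 in null heads. The groups did not overlap, but wild type replicate 3 lay 0.12 below the lowest null array. Its difference of 0.92 ± 0.30, 1.89-fold, did not pass (adjusted p = 0.0787), and it was 1.71, 0.81 and 0.23 within slides 1, 2 and 3. Without wild type replicate 3 it was 1.23 and passed (adjusted p = 0.00995).

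Wif1, a secreted protein that binds Wnt ligands directly, had the largest difference of the set. It read -4.16, -3.89 and -4.25 in wild type and -2.07, -2.07 and -2.30 in null heads. The null arrays lay 1.58 or more above every wild type array. The difference was 1.95 ± 0.16, 3.86-fold (adjusted p = 0.00136, 0.00723 with the slide as a block), and it was 2.09, 1.82 and 1.94 within the slides. It passed under all 17 alternatives. The size depended on the background correction, since normexp on the median signals gave 1.08, while the other alternatives gave 1.81 or more.

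Dkk1, a secreted inhibitor that binds Lrp5 and Lrp6 and whose promoter is printed above, lay just outside the threshold. It read -1.18, -1.31 and -1.58 in wild type and -0.96, -0.65 and -0.68 in null heads, without overlap. The difference was 0.59 ± 0.17, 1.51-fold (95% interval 0.19 to 1.0, adjusted p = 0.0551). It passed with 1 probe per gene in the fit (0.0399), with 1 mean per gene (0.0374), with an intensity trend and robust variance (0.0450) and with array weights (0.00995), and not under the other 13 alternatives, with 0.0892 where the slide was a block. Apcdd1, a membrane-bound glycoprotein that inhibits Wnt signalling, read -1.16, -0.88 and 0.02 in wild type and 0.47, 0.10 and 0.98 in null heads. The groups were apart by 0.08 between wild type replicate 3 and null replicate 2. Its difference was 1.19 ± 0.35, 2.28-fold (95% interval 0.36 to 2.01, adjusted p = 0.0578). It passed with the slide as a block (0.0228), without wild type replicate 3 (1.53, adjusted p = 0.0103) and under 5 further alternatives, and not under the other 10.

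**Figure D2:**
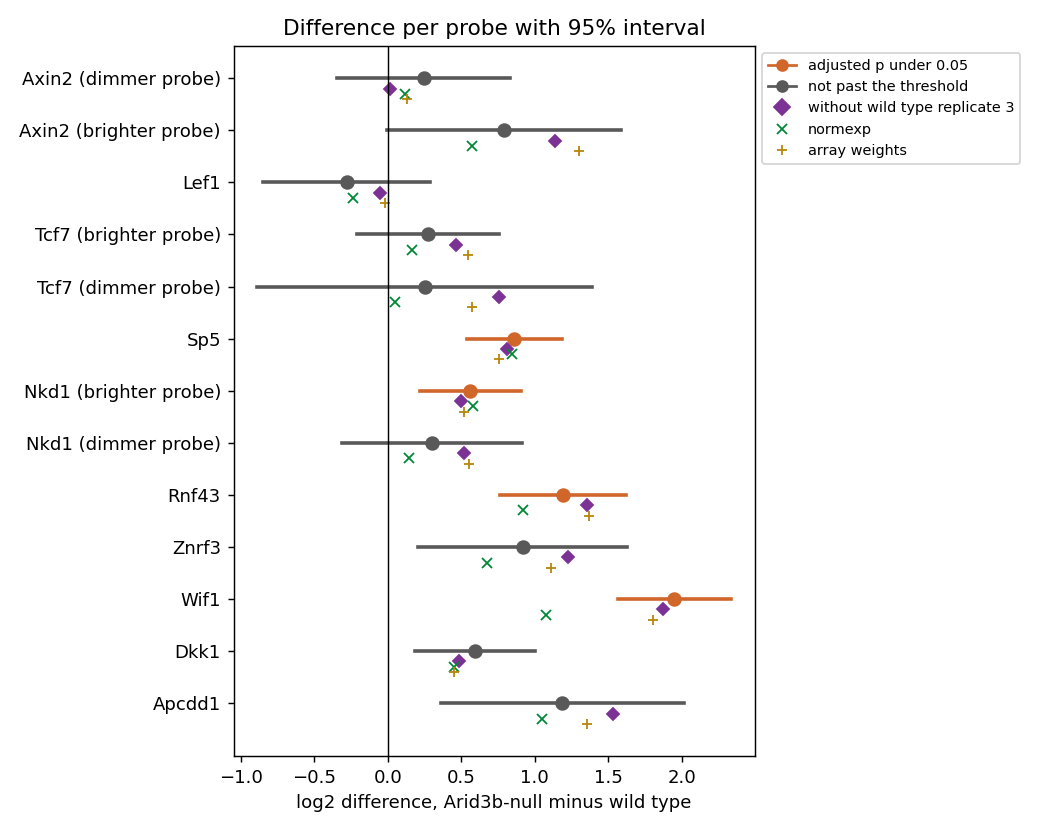
Log2 difference, Arid3b-null minus wild type, of each of the 13 probes with its 95% interval from limma (bars) and the value under 3 other settings (small markers). Wif1, Rnf43, Sp5 and the brighter Nkd1 probe are in orange as past the threshold; the interval also lies above 0 for Znrf3, Dkk1 and Apcdd1, and leaving out wild type replicate 3 moves the brighter Axin2 probe to 1.14 and Apcdd1 to 1.53.

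The wild type arrays varied more than the null arrays for these genes. The standard deviation over 3 arrays was smaller in null heads for all 13 probes, and for 69.9% of all named genes. It ran from 0.10 to 0.96 in wild type and from 0.04 to 0.49 in null heads. Wild type replicate 3 was the highest wild type array for 6 of the 10 genes, Axin2, Lef1, Tcf7, Rnf43, Znrf3 and Apcdd1, and for 35.7% of all named genes. For Sp5, Nkd1, Wif1 and Dkk1 it was the lowest. Without it 7 of 10 genes were called, all higher: Axin2, Znrf3 and Apcdd1 joined Wif1, Rnf43, Sp5 and Nkd1. By probe, 7 of 13 were called without that array. The count over all 26288 kept probes moved too, from 4720 (2465 higher) to 7622 (3794 higher). Leaving out any other single array gave 3 genes, Wif1, Rnf43 and Sp5.

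Arrays of both genotypes with the same replicate number sat on 1 slide, so differences were also read within slides. Of the 10 genes, 8 were above 0 on all 3 slides. The exceptions were Lef1, at 0.04, -0.33 and -0.55, and Tcf7, at 0.57, 0.32 and -0.07. The share of all named genes above 0 on all 3 slides was not counted. Under a stricter condition, every null array above every wild type array, it was 20.6%. The median of the 10 genes was 1.13, 0.76 and 0.75 within slides 1, 2 and 3, against -0.06, -0.01 and -0.03 over all named genes. Blocking on the slide left 4 of the 10 called, Wif1, Rnf43, Sp5 and Apcdd1, all higher, against 17.9% of named genes (9.79% higher and 8.13% lower). All wild type arrays were in position 1 and all null arrays in position 2 of a slide, and position cannot be told apart from genotype.

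**Figure D3:**
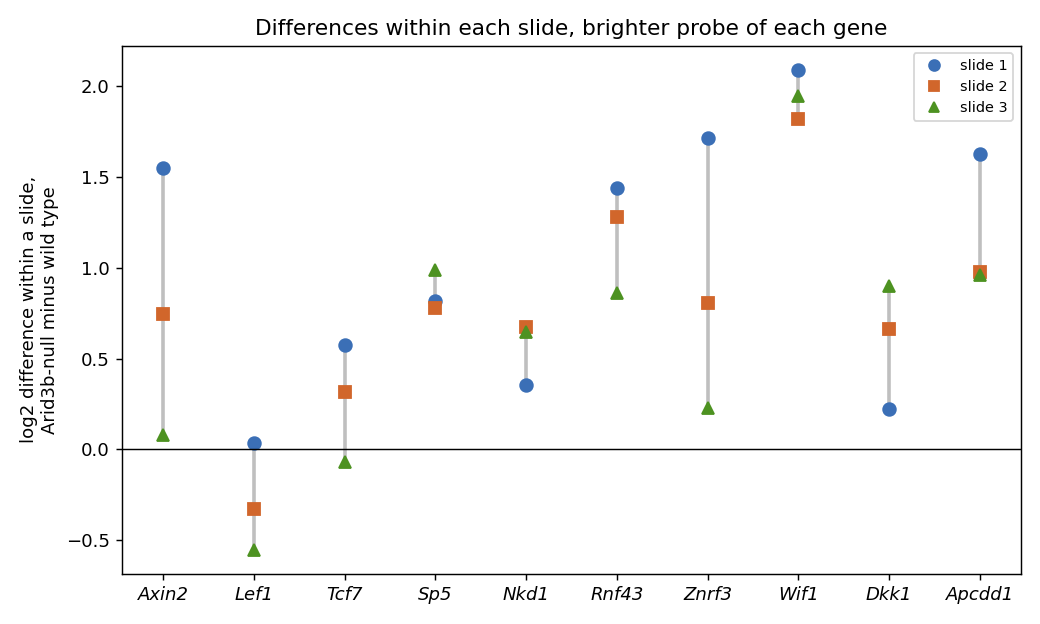
Log2 difference between the null and the wild type array of the same slide for each gene, read through its brighter probe, with 1 marker per slide and a grey bar spanning them. Wif1 and Sp5 have their 3 slides close together, from 1.82 to 2.09 and from 0.78 to 0.99, while Axin2 spans 0.08 to 1.55 and Znrf3 0.23 to 1.71.

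The genes whose values over the 6 arrays were most like those of Axin2 (brighter probe) were Aplp2, Prrc2b, Rps6ka2, Rasal2 and Slc44a1, with Pearson correlations of 0.997, 0.997, 0.994, 0.994 and 0.993 among 14897 genes. The 6 arrays share their scaling and fall into 2 groups, and none of these 5 genes was called between the groups. Within the set, the correlation with the brighter Axin2 probe was 0.973 for Tcf7, 0.941 for Znrf3, 0.892 for Apcdd1 and 0.849 for Rnf43. It was between 0.280 and 0.635 for Lef1, Dkk1, Nkd1, Sp5 and Wif1. Tcf7, Znrf3, Apcdd1 and Rnf43 ranked 56, 261, 656 and 1045 among the 14897 genes, so many genes outside the set were as close or closer. No correlation was taken with the dimmer Axin2 probe, which ran differently over the arrays. The pattern is thus that of the brighter probe only.

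The rest of the pathway was read from lists of 101 genes by role, of which 93 were kept. Of these, 14 were called higher and 6 lower, with a median difference of 0.13, against 10.5% and 9.21% of all named genes. Among 16 Wnt ligands 6 rose and 1 fell. Wnt1 of the midbrain rose by 1.32 ± 0.18 (2.29 on its other probe), Wnt10a by 1.07 ± 0.19 and Wnt9a by 0.99 ± 0.18, and Wnt4 and Wnt6 by 0.97 ± 0.19 and 0.57 ± 0.15 (Wnt4 by 0.62 with normexp). No wild type array had Wnt2b, counted among the 6, well above background, and it passed the filter through the null group alone. Its difference was 0.97 ± 0.20, 1.96-fold (limma adjusted p = 0.0178), and its size is uncertain. With normexp it was 0.14 and not called. Wnt7a fell by 1.69 ± 0.24 (by 1.05 with normexp), and Wnt5b and Wnt5a were at 0.11 ± 0.15 and -0.37 ± 0.13, not called. Porcn, the acyltransferase that readies Wnt proteins for release, rose by 1.02 ± 0.17, and Wls, their carrier, was at 0.92 ± 0.30 (adjusted p = 0.0763).

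Receptors and R-spondins had medians of 0.19 and 0.19. Of 17 receptors only Ror2, a receptor for Wnt5a outside the beta-catenin route, was called (0.63 ± 0.15), and Fzd2 and Fzd10 were at 0.34 ± 0.21 and -0.25 ± 0.16. None of the 3 R-spondins kept was called, with Rspo1 at 0.19 ± 0.17, Rspo2 at 0.27 ± 0.31 and Rspo3 at -0.17 ± 0.18. Among 12 other secreted antagonists and their co-receptors 3 rose and 1 fell. Dkk3 rose by 1.07 ± 0.19, Sostdc1 by 0.66 ± 0.13 (0.35 ± 0.29 and not called on its other probe) and the Frizzled-related Frzb by 0.56 ± 0.15. Dkk2, a close relative of Dkk1, fell by 1.03 ± 0.16, and Sfrp2 and the Wnt deacylase Notum were at -0.21 ± 0.14 and 0.09 ± 0.15.

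Inside the cell, 1 of 19 relay genes rose and 2 fell. Beta-catenin itself, Ctnnb1, was at 0.03 ± 0.14. Btrc, the ubiquitin ligase subunit that recognises phosphorylated beta-catenin, fell by 1.70 ± 0.22 (1.14 ± 0.21 on its other probe), Apc2 fell by 0.92 ± 0.22, and the tankyrase Tnks, which marks Axin for destruction, rose by 0.66 ± 0.17. Csnk1d and Tnks2 were at -0.47 ± 0.15 and 0.37 ± 0.16 and were not called. The other Csnk1d probe went the other way, at 0.91 ± 0.25 (limma adjusted p = 0.0479). Of 12 nuclear partners the co-activator Bcl9 fell by 0.79 ± 0.21 and no other was called, with Tle5 at 0.40 ± 0.45 and Tle3 at -0.03 ± 0.16.

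Targets outside the feedback set went both ways, with 2 of 12 higher and 1 lower. Ccnd1, the cyclin D1 gene, fell by 1.20 ± 0.14 and Tnfrsf19 rose by 0.61 ± 0.15. The mesoderm factor gene T (Brachyury) rose by 1.54 ± 0.29 (0.39 with normexp), a size that is uncertain. On 1 of the 3 wild type arrays T was not well above background, so it passed the filter through the null group. Ephb3 and Jun were at -0.14 ± 0.17 and -0.39 ± 0.19. The direction of all 20 called pathway genes was the same under every alternative that gave a value. Only Wnt1, Wnt7a, Wnt10a, Porcn, Dkk2, Btrc and Ccnd1 passed under all of them. The count was 11, 15 and 30 without wild type replicates 1, 2 and 3, and 7, 10 and 10 without null replicates 1, 2 and 3. In the same order, the count over all probes was 2597, 2663 and 7622, and 1847, 2185 and 2172, against 4720 with no array left out.

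**Figure D4:**
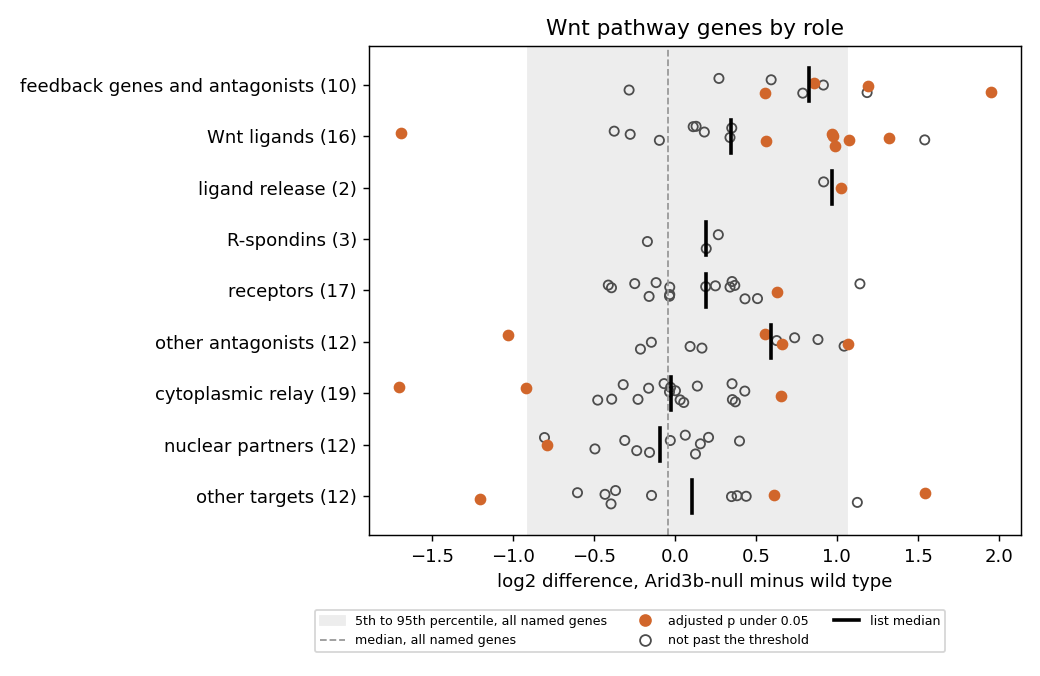
Log2 difference, Arid3b-null minus wild type, of each gene in the set and in the pathway lists (number of kept genes in brackets), with called genes filled, list medians as black bars and the 5th to 95th percentile of all named genes shaded. The feedback genes and antagonists have a median of 0.83, Wnt ligands 0.35, receptors 0.19, cytoplasmic relay genes -0.03 and nuclear partners -0.09.

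Other markers moved with the groups. All 11 genes of a list of low oxygen targets rose, with a median of 2.06. Among all named genes 10.5% were called higher and the median difference was -0.04. This list, like the others, was chosen with earlier results of these data known. The summed signal of the 11 genes, in multiples of the 75th percentile, was 43.3 to 50.7 in wild type and 239.5 to 244 in null heads. The part of low oxygen in the results above was not tested. Of 16 markers of posterior trunk and tail bud, where Wnt targets are also expressed, 5 were kept and 3 rose: Hoxb8, T by 1.54 ± 0.29 and Tbx6 by 1.90 ± 0.16 (0.08 ± 0.21 on its other probe). Hoxb8 was at 3.35 ± 0.70, a size that is uncertain: 1 wild type array did not measure it above background, its slides gave 5.54, 1.48 and 3.03, and normexp gave 0.81. The other kept markers were lower and not called, Cdx1 at -0.60 ± 0.19 and Hoxa9 at -0.27 ± 0.39. The summed signal of these 5 was 0.227 to 0.287 in wild type and 0.561 to 0.641 in null heads, but Hoxb8 and T passed the filter through the null group. Of the 11 markers not kept, Hoxb9, Hoxa10, Cdx2 and Cdx4 were well above background on 1 wild type and 0 null arrays (Cdx2 read -2.66 on wild type replicate 2), Wnt3a on 2 null arrays, and Hoxc8, Hoxc9, Hoxc10, Hoxd9, Hoxd10 and Msgn1 on none. Summed over all 16 markers, kept or not, a sum added after the values were seen, the signal was 0.306, 0.602 and 0.270 in wild type replicates 1, 2 and 3 and 0.680, 0.699 and 0.603 in null replicates. Wild type replicate 2 thus lay next to the lowest null array. The part of posterior tissue in the results was not tested.

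Markers of the head itself were present in both groups, but some differed in level. All 9 brain markers were kept and only Sox1 fell (not called on its other probe, at -0.50 ± 0.32); Otx2, at 0.57 ± 0.17, was not called. Of 10 markers of cranial mesenchyme Alx4 rose by 0.76 ± 0.16. Prrx1, Dlx2 and Hand2 fell by 0.85 ± 0.17, 1.13 ± 0.18 and 2.74 ± 0.29. The other Prrx1 probe was at 0.68 ± 0.22 (limma adjusted p = 0.0734), and the mean of the Prrx1 probes was at -0.09 and not called. None of 6 surface ectoderm, 8 heart and 7 endothelial genes kept was called. Called lower were Klf1 alone of 7 erythroid genes, Oc90 alone of 5 otic genes, and Meox1 and Tbx18 of 5 somite genes. Oc90 fell by 2.50 ± 0.37 (by 1.37 with normexp). Hand2, Dlx2 and Oc90 passed under all 17 alternatives, and Hand2 and Oc90 moved more than any gene of the set. Heart signal was uneven among wild type arrays: summed over 8 kept genes it was 0.757, 2.29 and 1.41 in replicates 1, 2 and 3, against 0.986 to 1.09 in null heads. Tnnt2, a heart troponin, read -5.69, -2.50 and -3.96 in wild type and -5.93 to -5.41 in null heads, and Myl7, not kept, read -2.18 on wild type replicate 2. Without wild type replicate 2, Wif1, Rnf43 and Sp5 were 2.06, 1.11 and 0.91 higher and passed, and Nkd1 did not (adjusted p = 0.116). Arid3b signal fell by 1.19 ± 0.29 on its brightest probe and by 1.37 and 2.33 on the other 2, and the sources used here do not say whether a probe lies in the deleted part. Between 67.9% and 70.3% of non-control spots were well above background per array, none was saturated, and correlations across kept probes were 0.979 to 0.989 among wild type, 0.992 to 0.993 among null and 0.970 to 0.977 between groups.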

How the data were processed

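Agilent one-colour scanner files of 6 arrays were used. Per the file headers, Agilent Feature Extraction 10.7.3.1 produced the deposited intensity values: a processed signal, already corrected for background and for spatial trend, and median intensities of spot and background. The authors' deposited value table is in log2 units; its column medians are 6.76 to 6.77, and its values correlate with the log2 scanner signal of the same array at 0.999 or more across probes, run the same way, and their exact scaling is unknown.

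Log2 processed signal minus the 75th percentile of the array over non-control spots was used. Controls and outliers (84 to 156 spots an array) were dropped, and repeat spots averaged. Of 39429 probes, 26431 got 1 symbol through RefSeq accessions in a GRCm38 table used for names only, 0 several and 12998 none. A probe was kept (26288) if 5 or more arrays measured it and 1 group had it well above background throughout. All were fitted together by lmFit and eBayes (limma 3.58.1, R 4.3.3), with p-values adjusted by Benjamini-Hochberg over all of them. The kept probe with the highest mean stood for its gene in counts of genes. Of these steps only the fit was tested on simulated data, with values of the kept probes drawn independently for each array.

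Named were all 10 genes, and of each pathway list up to 4 called genes with the smallest p and up to 2 uncalled ones with the highest mean; other pathway genes, and the comments on wild type replicate 3, were added after their values were seen. The members, lists and tests were chosen with earlier results of these data known. Promoter windows came from RefSeq. Alternatives were other normalizations, normexp on median signals with an offset of 50, the deposited log2 table, filters, probe rules, variance models, array weights, the replicate number (the slide) as a block, and leaving out each array. Same-numbered arrays shared a slide, and the block stands for that slide only. The correlations of their deviations from the group means across probes were -0.19, 0.20 and 0.27 for replicates 1, 2 and 3. Arrays on different slides ran from -0.51 (wild type 3 with null 2) to 0.47 (wild type 1 with null 2). Arrays of 1 slide were thus not more alike than others by this measure.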

Additional observations from a re-analysis of the deposited data

How the results depend on the processing

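With array weights 9 of 10 genes and 10 of 13 probes of the set were called, against 4 and 4. So were 54 of 93 pathway genes, against 20. Over all 26288 kept probes the weights gave 14358 calls, 6955 higher and 7403 lower, against 4720. Without the filter on dim probes 11 pathway genes and 2295 probes were called, over more probes tested. Leaving out 1 array at a time gave 3 to 7 genes and 3 to 7 probes of the set, 7 to 30 pathway genes and 1847 to 7622 probes in all. Fitting 1 probe per gene called 6 genes of the set, Dkk1 and Apcdd1 joining the other 4, and 3506 of 14906 genes in all, against 2939. With the replicate block, which is the slide, 4 probes and 4 genes of the set, 17 pathway genes and 4342 probes were called; Nkd1 was lost (adjusted p = 0.0675) and Apcdd1 gained (0.0228), and no other call of the set changed. The dimmer Tcf7 probe was at -0.20 when wild type replicate 1 was left out and at 0.76 when wild type replicate 3 was; no other probe of the set changed sign. The cause of these shifts was not tested. The number of arrays, 3 per group, limits the precision: Nkd1 at 0.56 was called, and Dkk1 at 0.59 and the brighter Axin2 probe at 0.79 were not.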

Other observations

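Some listed genes outside the set had a second probe that passed the test where the brighter one did not. Csnk1d, a casein kinase, was at -0.47 ± 0.15 on its brighter probe and rose by 0.91 ± 0.25 on the other (limma adjusted p = 0.0479, n = 3 arrays per group). Cd44, a surface receptor for hyaluronan and a Wnt target in the gut, was at 0.44 ± 0.14 and rose by 1.78 ± 0.22 on its dimmer probe (adjusted p = 0.00385). Kdr, a receptor used here as an endothelial marker, was at -0.22 ± 0.22 and rose by 0.76 ± 0.16 on its dimmer probe (adjusted p = 0.0217). These genes were named after their values were seen.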
